A study of Mus musculus with 2 samples.

Results

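The genes Mir99a, Mir99b, Mir100, Mir125a, Mir125b-1 and Mir125b-2 encode the miRNAs of the mir-99/100 and mir-125 families. Members were taken by gene name in the GENCODE annotation, by a rule that uses no measured value but was written with earlier results of these data known, and are 6 of the 2202 miRNA genes counted. All 6 had reads in both libraries. The libraries were small RNA libraries of total RNA from the hippocampus (labelled as a layer of it) of female B6CASTF1/J mice aged 36 days, a first-generation cross of the C57BL/6J and CAST/EiJ strains. No treatment or other genotype was contrasted, so the samples form 1 group of 2 replicates. The labels list a separate biosample entry for each library and 1 donor entry for both, which leaves unsettled whether 2 animals were used, and part of the spread may be technical.

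A miRNA is a short RNA that is cut from a hairpin precursor and guides repression of messenger RNAs, mainly by pairing through its seed (bases 2 to 8 of the mature strand). The mir-125 family is related to lin-4, the miRNA found as a timing gene in worms, and in vertebrates its genes lie in clusters with a let-7 gene and a mir-99/100 gene. Members of the mir-99/100 family are known for repressing components of mTOR and insulin-like growth factor signalling. In hippocampal neurons miR-125b has been linked to dendritic spine shape and miR-125a to local translation of the scaffold protein PSD-95.

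Mature sequences for all 6 genes were taken from RefSeq (GRCm38.p6), 12 arms in all, and the 5′ arms are shown because the genes share seeds within each family and some differ by a single base. Capitals mark the seed.

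mmu-miR-99a-5p: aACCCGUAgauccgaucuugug

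mmu-miR-100-5p: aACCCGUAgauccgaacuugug

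mmu-miR-99b-5p: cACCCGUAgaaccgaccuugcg

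mmu-miR-125a-5p: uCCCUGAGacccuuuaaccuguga

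mmu-miR-125b-5p, from Mir125b-1 and from Mir125b-2: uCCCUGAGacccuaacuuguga

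The 5′ arms of Mir100 and Mir99a differ by 1 substitution, A16U, counted from 1 at the 5′ end with the base of miR-100-5p first. From miR-99a-5p to miR-99b-5p there are 4 substitutions (A1C, U11A, U16C and U21C), all outside the seed. The arms of miR-125b-5p (22 bases) and miR-125a-5p (24 bases) are identical over their first 13 bases. Mir125b-1 and Mir125b-2 give the same 5′ arm, and only the 3′ arms, shown next because they tell these genes apart, differ by 5 substitutions (G3A, G4A, U7C, C11U and G20C, with the base of miR-125b-1-3p first).

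mmu-miR-125b-1-3p: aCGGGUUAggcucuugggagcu

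mmu-miR-125b-2-3p: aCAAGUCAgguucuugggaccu

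A read that holds only miR-125b-5p has at least 2 equally good places in the genome, and reads with several places were tallied apart from the genes. There were 3734600 such reads in replicate 1 and 4807740 in replicate 2, against 2928141 and 3644157 sense reads assigned to miRNA genes. The levels of Mir125b-1 and Mir125b-2 given here therefore do not measure miR-125b-5p, and the share of it among the reads with several places was not analysed here. The mature arms of the other 4 genes occurred in no other gene of the RefSeq table. Counts were per hairpin gene, so 5′ and 3′ arms were not told apart in any of the 6.

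The genes form 3 clusters of like order, with the mir-99/100 gene first, a let-7 gene in the middle and the mir-125 gene last, all on the plus strand (mm10). On chromosome 16, Mir99a (77598936 to 77599000), Mirlet7c-1 and Mir125b-2 (77646273 to 77646343) lie in introns of the noncoding gene Mir99ahg and span 47.4 kb. Mir125b-2 also overlaps an exon of C130023A14Rik on the same strand. On chromosome 9, Mir100 (41531425 to 41531504), Mirlet7a-2 and Mir125b-1 (41581926 to 41582002) lie in introns of the noncoding gene 3110039I08Rik and span 50.6 kb. Mir125b-1 also overlaps an exon of Gm28119 on the same strand, and Mir100 an exon of Gm48742 on the opposite strand. The cluster on chromosome 17 is compact, at 692 bases. There Mir99b (17830188 to 17830257) and Mirlet7e lie in an intron of Spaca6, and Mir125a (17830812 to 17830879) overlaps an exon of at least 1 Spaca6 transcript. In the clusters on chromosomes 16 and 9 the mir-99/100 gene is close to its let-7 gene (0.656 and 5.21 kb away), and the mir-125 gene lies a further 46.5 and 45.1 kb downstream.

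**Figure D1:**
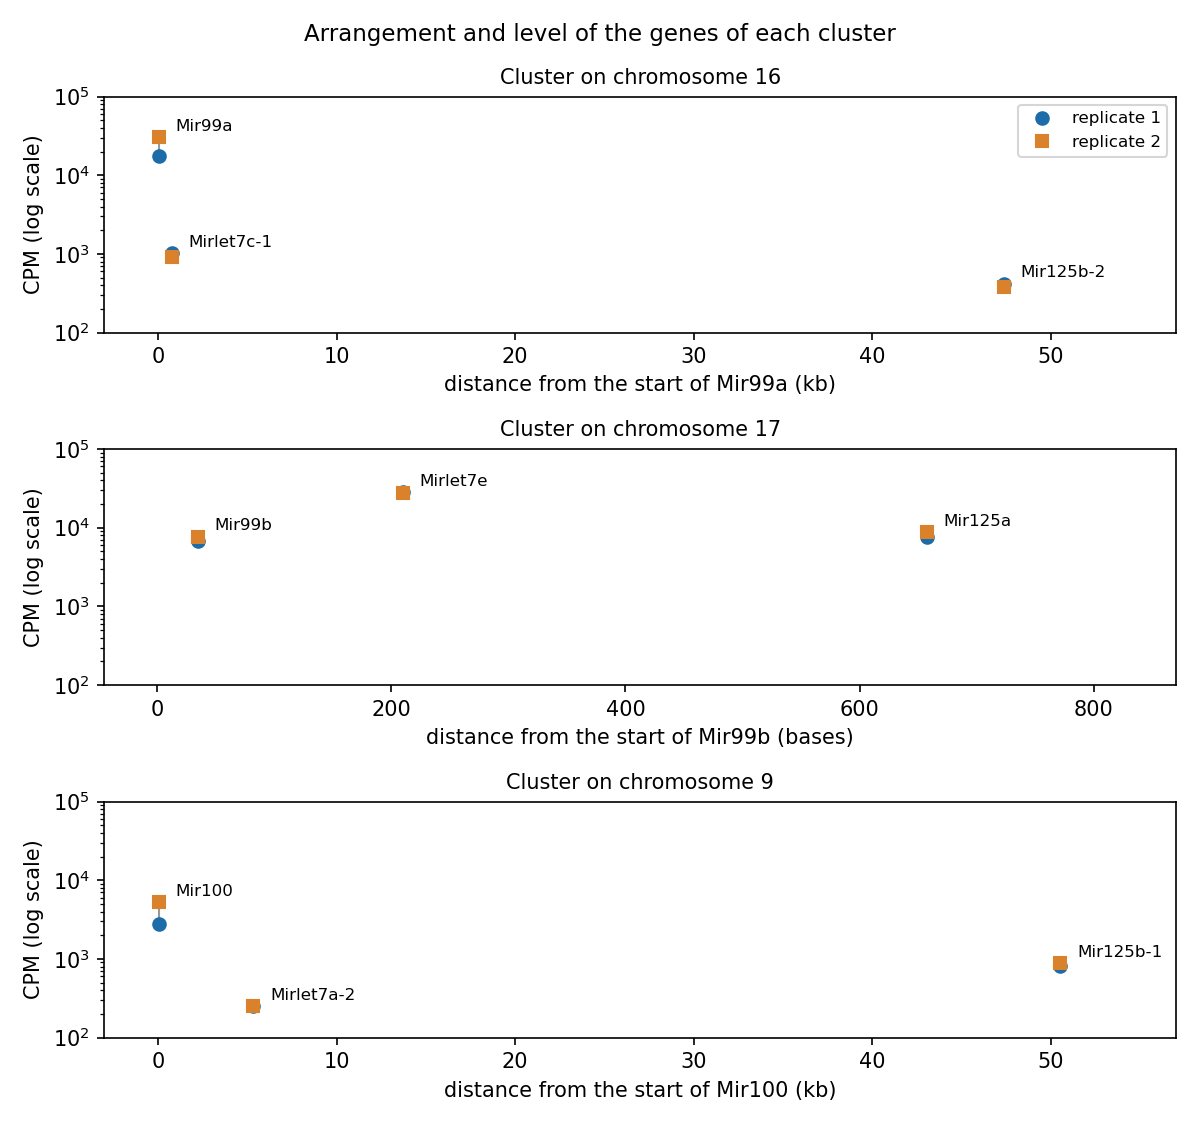
Level of each gene of the 3 clusters (y axis, CPM on a log scale) against its distance from the start of the first gene (x axis, kb for chromosomes 16 and 9, bases for chromosome 17). Circles are replicate 1 and squares replicate 2; the 2 symbols stand visibly apart for Mir99a and Mir100, at the head of the wide clusters, and lie close together or overlap for the other genes.

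Levels are given as CPM, reads per 1000000 sense reads on miRNA genes. The summed share of the 6 genes was 3.61% in replicate 1 (95% interval by the exact Clopper-Pearson method, 3.59% to 3.63%) and 5.37% in replicate 2 (5.34% to 5.39%), a mean of 4.49% ± 1.24 (SD, n = 2). With reads of several places added to the totals but none to the 6 genes, the mean share was 1.95%. That value is therefore low, as it credits the 6 genes with no such reads of miR-125b-5p. Molecules and their PCR copies were not told apart in the counts, so intervals take in counting error alone. Mir99a alone made up 49.0% of the counted reads of the 6 genes in replicate 1 and 57.1% in replicate 2. Without Mir99a the other 5 genes held 1.84% and 2.30% of assigned reads. Counts of the 6 genes leave out reads that hold only miR-125b-5p, so none of these shares measures their whole output. In bulk tissue, fewer cells of a type and less of a miRNA per cell cannot be told apart.

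Among mir-99/100 genes, Mir99a (ENSMUSG00000065530.1) had 51805 reads in replicate 1 and 111609 in replicate 2, or 17692 and 30627 CPM. It was the 10th and the 8th most abundant of all miRNA genes in these libraries. Mir99b (ENSMUSG00000065396.1) had 19986 and 28158 reads, or 6825 and 7727 CPM. Its libraries were close together, and its level was below that of Mir99a in both. Mir100 (ENSMUSG00000093011.1) had 8074 and 19328 reads, or 2757 and 5304 CPM, the widest relative gap among the 6 genes. The 3 genes share the seed ACCCGUA in their 5′ arms, which no other gene of the RefSeq table has, and summed to 27275 CPM in replicate 1 and 43658 CPM in replicate 2.

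Among mir-125 genes, Mir125a (ENSMUSG00000065479.2) led with 22263 reads in replicate 1 and 31852 in replicate 2, or 7603 and 8741 CPM. Mir125b-1 (ENSMUSG00000093354.1) had 2358 and 3188 reads, or 805 and 875 CPM. Mir125b-2 (ENSMUSG00000065472.1) had 1226 and 1398 reads, or 419 and 384 CPM, the only one of the 6 with the lower level in replicate 2. Both mir-125b genes stood below Mir125a in each library, a comparison that leaves out the reads of their common 5′ arm. The 3 mir-125 genes summed to 8827 and 9999 CPM.

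The order was the same in both libraries, namely Mir99a, Mir125a, Mir99b, Mir100, Mir125b-1 and Mir125b-2 from high to low. Counts of Mir125b-1 and Mir125b-2 leave out reads that hold only their common 5′ arm, so their last places are not a like measure. Means ± SD (n = 2) were 24159 ± 9146 CPM for Mir99a, 8172 ± 804 CPM for Mir125a, 7276 ± 637 CPM for Mir99b and 4031 ± 1801 CPM for Mir100. Those of Mir125b-1 and Mir125b-2 were 840 ± 49.2 and 401 ± 24.8 CPM. Mir125a and Mir99b were the only neighbours in this order whose values overlapped, since the 7603 CPM of Mir125a in replicate 1 lay below the 7727 CPM of Mir99b in replicate 2. Within a library, Mir125a had 1.11 and 1.13 times the reads of Mir99b. Divided by the annotated hairpin length (65 to 80 bases), the order of the means was unchanged, from 37168 CPM per 100 bases for Mir99a to 565 for Mir125b-2.

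The 2 libraries were then compared gene by gene by an exact binomial test (two-sided) of their reads, Benjamini-Hochberg adjusted over the 474 genes whose counts summed to 10 or more. The test sets 1 library against the other, not a condition against another, and allows for no noise beyond counting error. All 6 genes passed the threshold of 0.05, as did 58.0% of all genes tested. Of the 6, 5 were higher in replicate 2 (31.6% of all tested) and 1 was higher in replicate 1 (26.4% of all tested). At this depth small ratios pass the test in genes with many reads, as the values of Mir99b and Mir125a show.

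Mir100 and Mir99a, whose 5′ arms differ by 1 base, had the largest ratios of the 6. Mir100 was 1.92-fold higher in replicate 2 (exact 95% interval 1.87 to 1.97) and Mir99a 1.73-fold higher (1.71 to 1.75). The adjusted p of both was below the smallest number that could be represented. Mir99b was 1.13-fold higher (1.11 to 1.15, adjusted p = 2.07e-40 by the exact binomial test) and Mir125a 1.15-fold higher (1.13 to 1.17, adjusted p = 7.99e-57). These compact-cluster genes, from chromosome 17, thus had nearly the same ratio.

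The ratios of the mir-125b genes were small. Mir125b-1 was 1.09-fold higher in replicate 2 (1.03 to 1.15, exact binomial test, adjusted p = 0.0049), and Mir125b-2 was 1.09-fold higher in replicate 1 (1.01 to 1.18, adjusted p = 0.0459). Neither call held under every setting. That of Mir125b-1 was lost with TMM scaling (adjusted p = 0.0515) and when the most abundant gene was left out of the totals (adjusted p = 0.281), and that of Mir125b-2 was lost with no filter on low counts (adjusted p = 0.0681). Their summed level, 1224 CPM in replicate 1 and 1258 CPM in replicate 2, had a ratio of 1.03 (0.984 to 1.07).

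**Figure D2:**
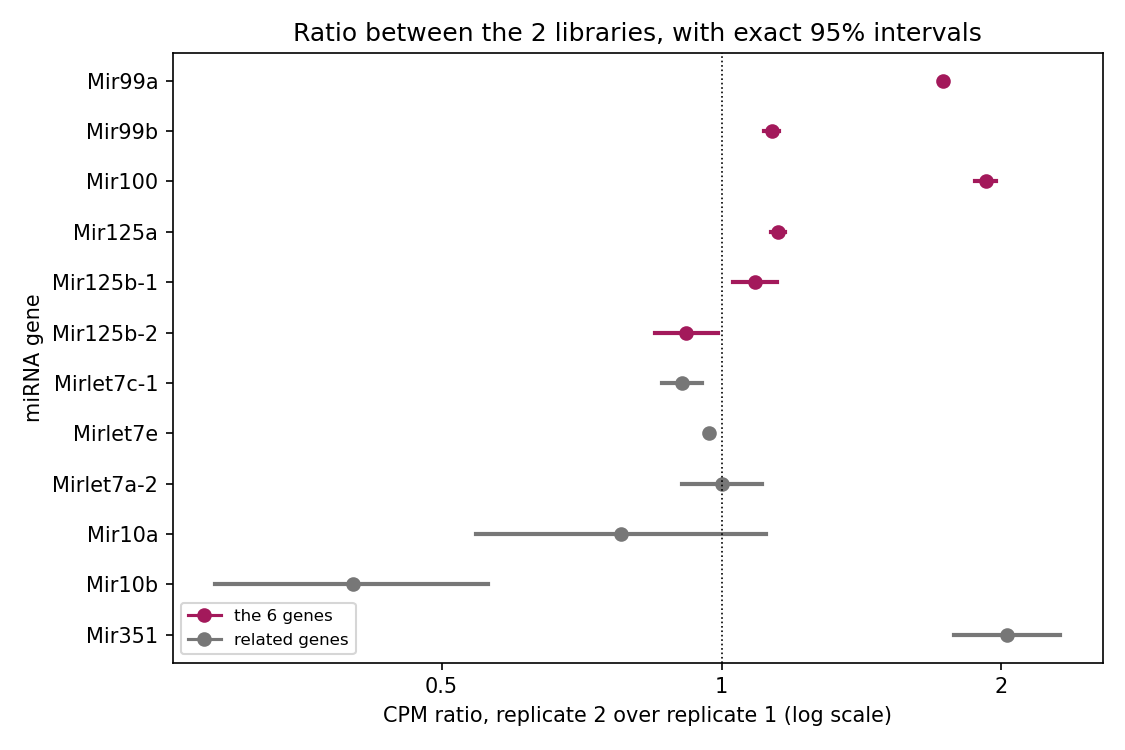
Ratio of the CPM in replicate 2 to that in replicate 1 (x axis, log scale) for the 6 genes and 6 related genes (y axis). Points are ratios and lines exact 95% intervals for counting error (hidden by the point where narrow); Mir99a and Mir100 lie at 1.73 and 1.92, and the other 4 of the 6 genes between 0.916 and 1.15.

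The spread over all genes gives the scale for these ratios. On the log2(CPM + 1) scale, differences between replicates 2 and 1 had an SD of 0.84 over 295 genes, those with mean counts of 50 or more. The log2 difference was 0.79 for Mir99a, inside 1 SD, and 0.94 for Mir100, just outside it. Of the 295 genes, 55 had a larger absolute log2 ratio than Mir99a and 41 a larger one than Mir100. The median log2 ratio of the 6 genes was 0.19, and that of the 474 genes tested 0.04. In absolute size the medians were 0.19 and 0.44. Ratios of at least 1.5-fold were seen in 2 of the 6 genes and in 38.2% of the genes tested.

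Abundant genes were also looked at on their own. Of the 50 genes with the highest mean CPM, 4 are among the 6 described here (Mir99a, Mir125a, Mir99b and Mir100), and 12 of the 50 differed by at least 1.5-fold. In this range 6 genes had a larger absolute ratio than Mir99a, and 3 a larger one than Mir100.

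**Figure D3:**
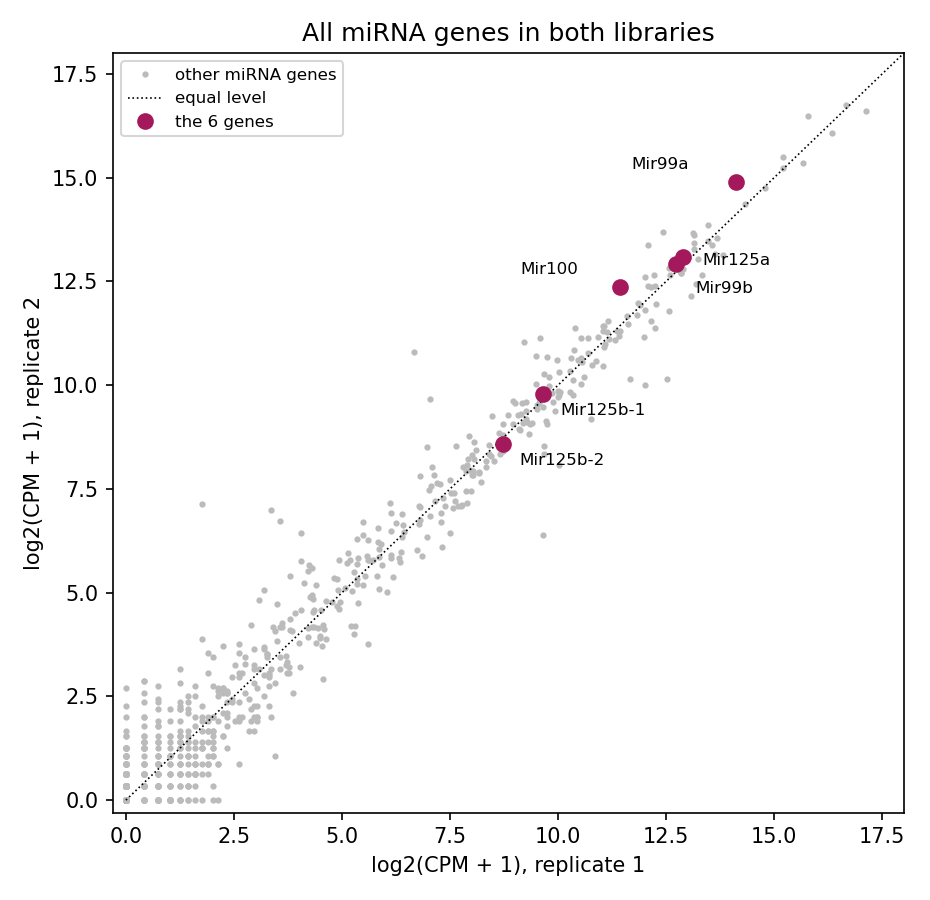
Level of every miRNA gene in replicate 1 (x axis) and replicate 2 (y axis), both as log2(CPM + 1), with the 6 genes as large labelled points and the dotted line at equal levels. Mir99a and Mir100 lie above the line by 0.79 and 0.94, and the other 4 genes lie close to it, at differences from -0.13 to 0.20.

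Within a library, ratios between genes of the same cluster do not depend on the total used for scaling. They do depend on which reads had a single place. Counts of Mir125b-1 and Mir125b-2 leave out reads that hold only their common 5′ arm, and those of Mir99b and Mir125a do not. The size of the ratio is therefore not a like measure across the clusters. On chromosome 16, Mir99a had 42.3 reads per read of Mir125b-2 in replicate 1 (exact 95% interval 39.9 to 44.8) and 79.8 in replicate 2 (75.7 to 84.2). On chromosome 9, Mir100 had 3.42 reads per read of Mir125b-1 in replicate 1 (3.27 to 3.59) and 6.06 in replicate 2 (5.84 to 6.30). In both wide clusters the ratio was thus higher in replicate 2, by 1.89 and 1.77 times, and the intervals of the libraries did not overlap. On chromosome 17, Mir99b had 0.898 reads per read of Mir125a in replicate 1 (0.881 to 0.915) and 0.884 in replicate 2 (0.870 to 0.898), with overlapping intervals.

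The let-7 genes between them, which encode miRNAs high in differentiated cells, gave a further reference. Mirlet7c-1 was at 1013 and 919 CPM in replicates 1 and 2, Mirlet7a-2 at 249 in each, and Mirlet7e at 28192 and 27320 CPM. Against their let-7 neighbours, Mir99a went from 17.5 to 33.3 reads per read of Mirlet7c-1 and Mir100 from 11.1 to 21.3 per read of Mirlet7a-2, between replicates 1 and 2. The ratios among the remaining genes of these clusters were closer. Mirlet7c-1 had 2.42 and 2.39 reads per read of Mir125b-2, and Mirlet7a-2 had 0.309 and 0.285 per read of Mir125b-1, each with overlapping intervals. In both wide clusters, then, the ratios that differed between the libraries were those that include the mir-99/100 gene. In the compact cluster the let-7 gene stood apart instead, as Mirlet7e had 3.71 and 3.13 reads per read of Mir125a (3.65 to 3.76 and 3.09 to 3.17). Mirlet7c-1 and Mirlet7a-2 give mature let-7 sequences that other genes encode as well, so they can lose reads with several places.

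**Figure D4:**
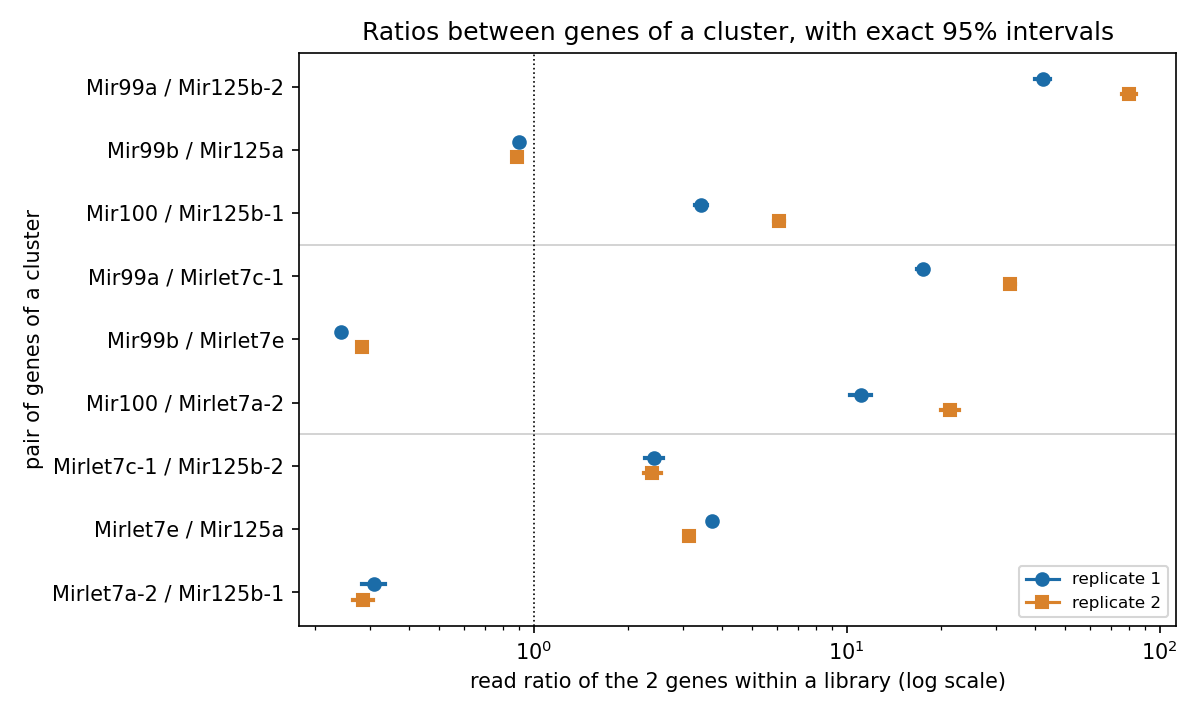
Read ratio of pairs of genes of a cluster within each library (x axis, log scale; circles replicate 1, squares replicate 2, lines exact 95% intervals). The symbols of the libraries are far apart for the pairs that hold Mir99a or Mir100, and close for Mir99b over Mir125a and for let-7 genes over Mir125b genes.

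The make-up of the clusters differed accordingly. In the chromosome 16 cluster Mir99a held 92.5% of the reads of the 3 genes in replicate 1 and 95.9% in replicate 2. In the chromosome 9 cluster Mir100 held 72.3% and 82.5%, and Mir125b-1 21.1% and 13.6%. In the chromosome 17 cluster Mirlet7e held the most, 66.1% and 62.4%, with Mir99b at 16.0% and 17.6% and Mir125a at 17.8% and 20.0%. As a whole, the clusters on chromosomes 16, 17 and 9 summed to 19124, 42621 and 3811 CPM in replicate 1 and to 31929, 43788 and 6428 CPM in replicate 2. These shares and sums leave out reads with several places, such as reads that hold only miR-125b-5p. Mirlet7c-1 and Mirlet7a-2 can lose reads in the same way, so the values do not measure the output of a whole cluster.

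Of the relatives outside the clusters, Mir351 came nearest to the level of the mir-125b genes and Mir10a and Mir10b were far below it. Mir351, an X-linked gene whose 5′ arm has the mir-125 seed CCCUGAG, had 323 reads in replicate 1 and 815 in replicate 2, or 110 and 224 CPM, and was called 2.03-fold higher in replicate 2 (1.78 to 2.31). Of the other genes with this seed, Mir6367 and Mir6394 had 0 reads in both libraries, which allows up to 1.02 CPM in replicate 1 and 0.823 CPM in replicate 2 for reads placed once. Mir10a and Mir10b, Hox cluster genes of a family related to mir-99/100, were at 20.1 ± 3.52 and 26.3 ± 15.9 CPM (SD, n = 2). Mir10a was not called (ratio 0.779, 0.544 to 1.12), and Mir10b was called 2.49-fold higher in replicate 1 (1.78 to 3.51), the direction opposite to that of Mir99a and Mir100. miR-100-5p and miR-10a-5p share a run of 11 bases, but their seeds differ. Of the 6 related genes fixed as a list (the 3 let-7 neighbours, Mir10a, Mir10b and Mir351), 1 was called higher in replicate 2, 3 were called higher in replicate 1 and 2 were not called, beside 31.6%, 26.4% and the remainder of all genes tested.

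Genes with the most similar levels over the 2 libraries were found by distance in log2(CPM + 1), which rests on 2 values a gene. Those nearest to Mir99a were Mir23b (distance 0.58) and Mirlet7e (0.69), and those nearest to Mir100 were Mir30e (0.59) and Mir487b (0.63). Mir125a had closer matches in Mir328 (0.05) and Mir23a (0.11), Mir99b in Mir411 and Mir30d (both 0.19), Mir125b-1 in Mir540 (0.05) and Mir423 (0.13), and Mir125b-2 in Mir501 (0.13) and Mirlet7a-1 (0.18).

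Over the whole series, 30.5% and 34.7% of the reads tallied in replicates 1 and 2 were assigned to miRNA genes, and 38.9% and 45.8% had several places. Neuron-enriched Mir137 and Mir132 were at 10871 ± 2488 and 11395 ± 1073 CPM, hepatic Mir122 at 40.9 ± 4.24 CPM and endocrine Mir375 at 243 ± 170 CPM (SD, n = 2). Mir124a-1, Mir124a-2 and Mir124a-3, also neuron-enriched, went the other way, with means of 2.46, 0.683 and 0.820 CPM, below Mir122. Whether reads with several places account for those low counts was not tested. The level of Mir375 was 123 CPM in replicate 1 and 364 CPM in replicate 2, and whether it bears on the 6 genes was not tested. None of the 6 genes had an antisense read in either library, and none lies opposite another annotated miRNA gene, so their read counts were the same with and without strand.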

How the data were processed

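Hippocampal total RNA was made into small RNA libraries, with a size range below 30 per the labels. The authors deposited raw read counts by miRNA gene in 3 unnamed columns, taken here as unstranded, sense and antisense. The assembly mm10 and the GENCODE M21 annotation are named in the deposited notes. The aligner's name was not given in the sources used here. All 2202 gene identifiers matched GENCODE M21. The 4 rows that name no gene (69.5% and 65.3% of reads in replicates 1 and 2) entered no total and no test.

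Sense counts were divided by their library total (CPM), and 1 CPM was added before taking log2. With 1 library a side, the edgeR quasi-likelihood test could not be used. Every gene whose counts summed to 10 or more entered an exact binomial test (two-sided) against the ratio of the library totals, Benjamini-Hochberg adjusted with a threshold of 0.05. The procedure was tried on simulated counts that held counting error alone. That trial does not cover the wider spread between these libraries. Alternatives were TMM (edgeR 4.0.16) and DESeq2 1.42.0 scaling, other totals, filters, pseudocount and strand, and leaving out either replicate. The text names the 6 genes, the let-7 genes of their clusters, genes sharing a 5′ seed, Mir10a and Mir10b, and the 2 genes nearest in level to each. Mir137, Mir132, Mir124a-1, Mir124a-2, Mir124a-3, Mir122 and Mir375 were added as a tissue check. Members and lists were chosen with earlier results of these data known. Python 3.11.15, scipy 1.17.1 and R 4.3.3 were used.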

Additional observations from a re-analysis of the deposited data

Results flagged for a closer look

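Reads that had several places, which are outside the gene counts, numbered 3734600 in replicate 1 and 4807740 in replicate 2. They were taken up because they exceed the reads assigned to genes, and a read of miR-125b-5p, common to Mir125b-1 and Mir125b-2, belongs among them. They are totals over many places, so the limit that a count of 0 allows for a single gene does not apply.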

How the results depend on the processing

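Direction between the libraries held for all 6 genes under each scaling, filter, pseudocount and strand setting, with log2 ratios from 0.72 to 0.79 for Mir99a and from 0.87 to 0.94 for Mir100. Of all genes tested, 275 of 474 were called (58.0%), 232 of 295 (78.6%) with a summed count of at least 100 and 263 of 723 (36.4%) with no filter, where 6, 6 and 5 of the 6 were called. TMM scaling and the totals that omit the most abundant gene each called 268 of 474, and 5 of the 6. Of all calls, 54.5% were higher in replicate 2, and 47.0% when the totals omit the most abundant gene. Those totals raise the means of all 6 genes. Mir99a moves to 27305, Mir99b to 8265, Mir100 to 4550, Mir125a to 9281, Mir125b-1 to 955 and Mir125b-2 to 457 CPM. Without strand the means of all 6 genes were likewise higher, with Mir125b-1 at 907 and Mir125b-2 at 433 CPM, as the total is smaller. With reads of several places in the total but not in the counts of the 6 genes, these genes held 1.95%. Per 100 bases of hairpin, the values were 37168 for Mir99a, 12017 for Mir125a, 10395 for Mir99b, 5038 for Mir100, 1091 for Mir125b-1 and 565 for Mir125b-2. Leaving out either replicate gives the single-library values, 3.61% to 5.37% for the share of the 6 genes. No paired analysis was possible because the samples form 1 group.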
